A study of Mus musculus with 6 samples.

Results

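The 10 genes described here encode chromatin cofactors of the myogenic transcription factors. They were chosen by symbol from the 28892 genes of the gene table, as the SWI/SNF subunits Smarca2, Smarca4, Smarcd1 and Smarcd3, the polycomb methyltransferases Ezh1 and Ezh2, the H3K9 methyltransferase Suv39h1, the lysine demethylase Kdm1a, and the arginine methyltransferases Prmt5 and Carm1. RNA sequencing covered 6 libraries, 3 from C2C12 WT cells (wild type) and 3 from C2C12 Myod1-/- cells (Myod1 knocked out with CRISPR/Cas9). C2C12 is a mouse myoblast line of the C3H strain, which was derived from satellite cells of thigh muscle, the mouse being a female aged 2 months. Both genotypes had been kept in the serum-free medium Ndiff227 for 6 days, in which WT cells made myotube-like structures and Myod1-/- cells floating spheres, so that genotype and this state of the culture cannot be told apart. All knockout libraries came from a single clone. The knockout was made with a lentiviral vector and puromycin selection, and no such treatment of the WT cells is described. Genotype cannot be told apart from these steps either. Whether the samples of a genotype were separate cultures is not given in the labels. The p-values therefore measure only the spread between these samples, which may be technical.

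Myod1 binds the DNA motif called an E-box and turns on muscle genes that are packed in closed chromatin in other cells. In this it works with SWI/SNF, a complex that slides nucleosomes with the energy of ATP. Smarca4 (BRG1) and Smarca2 (BRM) are its alternative ATPases, and the Smarcd proteins (BAF60) are subunits that contact transcription factors, among them Smarcd3 (BAF60c), known as a partner of Myod1 at muscle genes. Ezh2 and Ezh1 are the alternative catalytic subunits of polycomb repressive complex 2 (PRC2), which methylates H3K27 and keeps muscle genes silent in myoblasts, and Suv39h1 methylates H3K9 for silencing. Kdm1a (LSD1) removes methyl groups from histone lysines, while Prmt5 and Carm1 methylate arginines on histones and other proteins and are known as coactivators of muscle genes.

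The labels were first checked with Myod1 itself. Myod1 had 17.3, 25.8 and 27.7 FPKM in the WT libraries and 0.0614, 0 and 0 FPKM in the Myod1-/- libraries, although most of its transcript lies outside the deleted stretch of its first exon. FPKM divide the fragments of a gene by its length and by all mapped fragments of the library, so that levels may be set side by side between genes. Of 7 skeletal muscle markers all fell, and their summed level was 2525 to 2709 FPKM in WT and 14.6 to 15.5 FPKM in Myod1-/- cells, nearly all of the latter from Des. The other 6 markers, among them Myog and Acta1, were below 0.6 FPKM in every Myod1-/- library. Of 20 cell cycle genes 17 fell and none rose by limma, also at an unadjusted p under 0.05 (17 and 0), and the summed level of the list was 189 to 196 FPKM in WT and 68.0 to 70.8 FPKM in Myod1-/- cells. Markers of other cell types were low: the 12 leukocyte markers summed to 8.05 to 10.1 FPKM in WT and 28.5 to 30.6 FPKM in Myod1-/- cells, of which Cd68 alone made up 5.24 to 7.58 and 26.3 to 27.8 FPKM, and the defining marker Ptprc was at most 0.0218 FPKM in any library. Endothelial and epithelial markers summed to at most 0.207 and 0.354 FPKM in any library. The part of these lists in the results below was not tested. In bulk samples, fewer cells of a type and less RNA per cell cannot be told apart.

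For 9 of the 10 genes RefSeq gives a start site on GRCm38.p6, and Suv39h1 has 2. The promoter of Carm1 is not analysed here. The 250 bases before each start were searched on both strands for the E-box core CANNTG, and for CAGCTG, a form of it that Myod1 binds. CANNTG was in 5 of 10 windows, those of Smarcd3, Smarca2, Ezh1, Prmt5 and the outer start of Suv39h1, and in 66.2% of 32851 promoter windows of the same length. CAGCTG, which is itself a CANNTG, was in the window of Smarcd3 alone and in 13.0% of all windows. A match is a description of the letters, not a bound site. The windows of the SWI/SNF members, the 4 genes that lay between 0.52 and 1.89 log2 units apart between genotypes, follow 5′ to 3′, without the bases that GENCODE vM21 places in an exon and with every CANNTG in capitals.

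Smarcd3, chr5:24602013-24602252, minus strand: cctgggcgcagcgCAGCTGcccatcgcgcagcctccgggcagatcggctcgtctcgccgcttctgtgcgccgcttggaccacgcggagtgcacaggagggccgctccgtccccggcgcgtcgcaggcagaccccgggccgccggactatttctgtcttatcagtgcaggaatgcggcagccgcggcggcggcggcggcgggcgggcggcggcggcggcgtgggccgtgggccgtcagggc

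Smarca2, chr19:26604910-26605049, plus strand: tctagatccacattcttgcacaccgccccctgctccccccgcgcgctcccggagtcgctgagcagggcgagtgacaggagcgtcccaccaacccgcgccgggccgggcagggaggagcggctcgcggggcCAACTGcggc

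Smarca4, chr9:21615919-21616168, plus strand: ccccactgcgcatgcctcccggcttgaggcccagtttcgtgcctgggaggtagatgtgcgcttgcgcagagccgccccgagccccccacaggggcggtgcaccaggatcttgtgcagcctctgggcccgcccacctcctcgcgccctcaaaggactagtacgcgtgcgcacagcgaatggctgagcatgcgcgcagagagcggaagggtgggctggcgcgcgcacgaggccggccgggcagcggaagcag

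Smarcd1, chr15:99702037-99702128, plus strand: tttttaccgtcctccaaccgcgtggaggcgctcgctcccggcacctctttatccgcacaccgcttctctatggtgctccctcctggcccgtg

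The E-box of Smarcd3 begins 237 bases before its start, and that of Smarca2 begins 120 bases before. No CANNTG was found in the windows of Smarca4 and Smarcd1. The start of Smarcd3 used by RefSeq lies inside the gene as GENCODE draws it, from 24590818 to 24624411 on chromosome 5, since longer transcripts begin further upstream. The starts used for Smarcd1 and Smarca2 also lie inside their genes, which begin at 99702129 and 26605050. Only 92 bases of the Smarcd1 window and 140 of the Smarca2 window thus come before the gene.

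Across the 10 genes, 7 fell in Myod1-/- cells, 1 rose and 2 did not pass the test. "Rose" and "fell" are used where the p-value of limma, adjusted by the method of Benjamini and Hochberg, was under 0.05. The fit took log2(FPKM + 0.1) of the 14045 genes whose mean reached 0.5 FPKM, and all 10 genes did. The difference between genotypes was wide in these cells: 61.1% of all genes tested passed, 33.3% as lower and 27.9% as higher. This balance turned with the scale, from 3914 higher and 4670 lower to 4441 and 4188 under quantile normalization and to 4397 and 4094 on rescaling to the same sum. The 8 of 10 members that passed stand beside that share, and so do the 8 of 10 whose WT and Myod1-/- libraries did not overlap, against 67.9% of all genes tested. The median log2 fold change was -0.31 over the members and -0.05 over all genes tested. By the study's rule for differentially expressed genes, a log2 fold change of 1 or more in either direction with an unadjusted p no higher than 0.05, only Smarca2 was called, where 20.3% of all genes tested were.

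**Figure D1:**
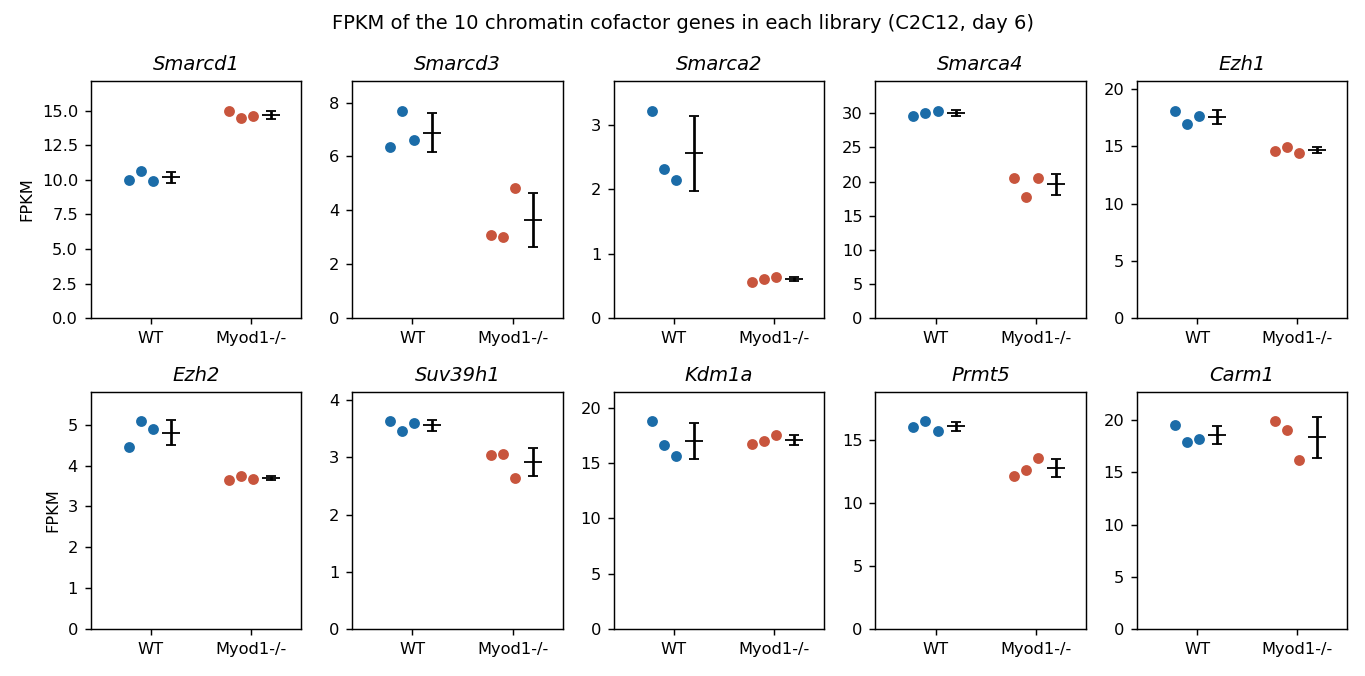
FPKM (y axis, from 0, a scale for each gene) of the 10 genes in each of the 3 WT (blue) and 3 Myod1-/- (red) libraries, with the mean and SD in black beside the points. The libraries of the genotypes overlap only for Kdm1a and Carm1, and Smarcd1 is the 1 gene whose Myod1-/- libraries all lie above the WT libraries.

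Smarca2, the BRM ATPase, showed the largest difference of the 10 genes. It occupies positions 26605050 to 26778322 of chromosome 19, on the plus strand. Its levels were 3.22, 2.32 and 2.14 FPKM in the WT libraries and 0.569, 0.611 and 0.646 FPKM in the Myod1-/- libraries. The genotypes did not overlap, and the lowest WT library was over 3 times as high as the highest Myod1-/- library. Smarca2 fell by 1.89 on the log2 scale (SE 0.17, n = 3 per genotype, adjusted p from limma 0.000128), which is a 3.70-fold lower FPKM + 0.1. By the size of its log2 fold change it stood at percentile 91.0 of all genes tested. Being a low gene, Smarca2 had a log2 fold change of -1.13 when 1 FPKM was added in place of 0.1, and still passed.

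Smarca4, the BRG1 ATPase, is on chromosome 9 from 21616169 to 21704230 on the plus strand. By the mean of the gene values it was the highest of the 10 genes in both genotypes. It had 29.6, 30.1 and 30.4 FPKM in WT and 20.5, 17.8 and 20.5 FPKM in Myod1-/- libraries. All Myod1-/- libraries lay well below the WT libraries. Smarca4 fell by 0.61 on the log2 scale (SE 0.07, adjusted p from limma 0.000264), a level 1.53-fold lower. The ATPases together came to 32.4 to 32.8 FPKM in WT and to 18.4 to 21.2 FPKM in Myod1-/- cells.

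Smarcd3 encodes BAF60c and is on the minus strand of chromosome 5. Its levels were 6.36, 7.70 and 6.59 FPKM in WT and 3.10, 3.01 and 4.81 FPKM in Myod1-/- libraries. Replicate 3 of Myod1-/- was higher than the other two of its genotype but below every WT library. Smarcd3 fell by 0.93 on the log2 scale (SE 0.19, adjusted p from limma 0.00563), a level 1.90-fold lower. The exons of Smarcd3 overlap those of Chpf2 on the other strand, and the library kit named in the methods is not one that marks strand, so that reads from the overlap cannot be told apart. Chpf2 had 15.8, 15.7 and 8.44 FPKM in WT and 28.0, 16.7 and 27.8 FPKM in Myod1-/- libraries. Its log2 fold change was 0.87 (adjusted p from limma 0.0470), opposite in sign to that of Smarcd3, and it no longer passed when any library but Myod1-/- replicate 2 was left out (adjusted p of up to 0.129). Chpf2 was named for this overlap, after its values were seen.

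Smarcd1 encodes BAF60a, found in SWI/SNF of many cell types, and lies on chromosome 15 from 99702129 to 99713991 on the plus strand. It had 10.01, 10.7 and 9.91 FPKM in WT and 15.0, 14.5 and 14.6 FPKM in Myod1-/- libraries. The genotypes were far apart against a spread of under 1 FPKM within each. Smarcd1 rose by 0.52 on the log2 scale (SE 0.05, adjusted p from limma 0.000165), a level 1.44-fold higher. It was the 1 member that rose, and as a sum of its transcripts its log2 fold change was 1.34.

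**Figure D2:**
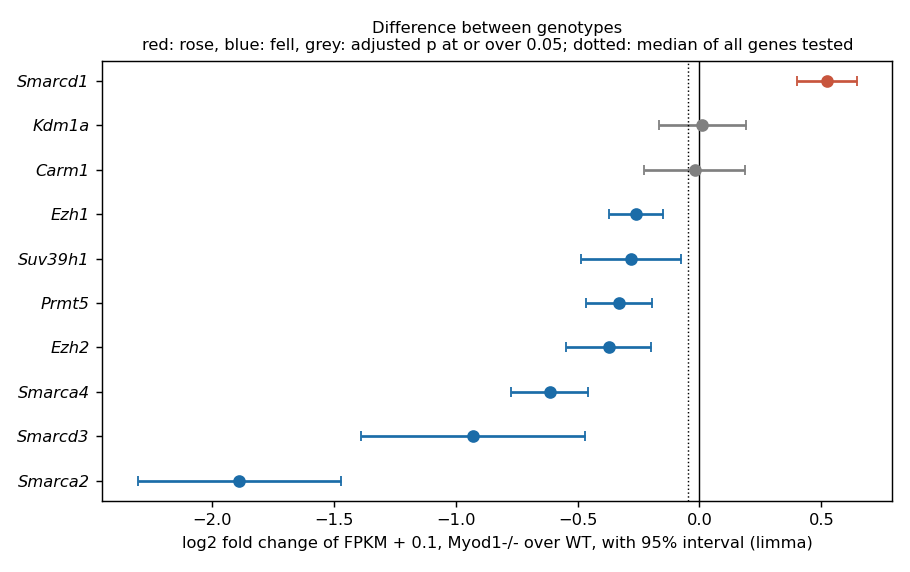
Log2 fold change of FPKM + 0.1 in Myod1-/- over WT cells (x axis) for each of the 10 genes, with the 95% interval from limma; the dotted line is the median of all genes tested, -0.05. The 4 SWI/SNF genes lie farthest from 0, Smarca2 at -1.89 and Smarcd1 at 0.52, and the intervals of Kdm1a and Carm1 span 0.

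Ezh1, the PRC2 methyltransferase that prevails in cells that have left the cell cycle, is on chromosome 11 from 101191115 to 101226463 on the minus strand. It had 18.1, 16.9 and 17.6 FPKM in WT and 14.6, 14.9 and 14.4 FPKM in Myod1-/- libraries. Ezh1 fell by 0.26 on the log2 scale (SE 0.05, adjusted p from limma 0.00295), a level 1.20-fold lower with no overlap between genotypes. Ezh2, its paralog of dividing cells, is on chromosome 6 from 47530139 to 47595341 on the minus strand. It had 4.46, 5.08 and 4.89 FPKM in WT and 3.65, 3.74 and 3.67 FPKM in Myod1-/- libraries. Ezh2 fell by 0.37 on the log2 scale (SE 0.07, adjusted p from limma 0.00438), a level 1.29-fold lower. In both genotypes Ezh1 was thus well above Ezh2. The fall of Ezh2 was smaller than that of most cell cycle genes, whose median log2 fold change was -2.26. When the gene value was taken as the sum of its transcripts, Ezh2 had a log2 fold change of 0.11 and did not pass.

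Suv39h1 is on the X chromosome from 8061171 to 8074760 on the minus strand. It had 3.63, 3.45 and 3.60 FPKM in WT and 3.04, 3.07 and 2.64 FPKM in Myod1-/- libraries. The libraries did not overlap, but the distance between the nearest of them was small. Suv39h1 fell by 0.28 on the log2 scale (SE 0.08, adjusted p from limma 0.0266), a level 1.22-fold lower. This call was lost without WT replicate 1 (adjusted p from limma 0.0634), without WT replicate 3 (0.0763), without Myod1-/- replicate 3 (0.0715), and under quantile normalization (0.185) or rescaling to the same sum with all genes (0.0934) or without mitochondrially encoded genes (0.0571).

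Kdm1a is on chromosome 4 from 136550540 to 136602723 on the minus strand. It had 18.8, 16.6 and 15.6 FPKM in WT and 16.7, 17.0 and 17.5 FPKM in Myod1-/- libraries. The Myod1-/- libraries lay inside the range of the WT libraries. The log2 fold change was 0.01 (SE 0.07, 95% interval -0.17 to 0.19, adjusted p from limma 0.909). A difference of Kdm1a within that interval cannot be told from none with these 3 libraries per genotype.

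Prmt5, which places symmetric dimethyl marks on arginines, is on chromosome 14 from 54507187 to 54517525 on the minus strand. It had 16.0, 16.5 and 15.7 FPKM in WT and 12.1, 12.6 and 13.6 FPKM in Myod1-/- libraries. Prmt5 fell by 0.33 on the log2 scale (SE 0.06, adjusted p from limma 0.00254), a level 1.26-fold lower with no overlap between genotypes. As a sum of its transcripts the log2 fold change of Prmt5 was 0.58 and did not pass. Carm1, which places asymmetric marks, is on chromosome 9 from 21546894 to 21592623 on the plus strand. It had 19.5, 17.9 and 18.2 FPKM in WT and 19.9, 19.0 and 16.2 FPKM in Myod1-/- libraries. The genotypes overlapped, with the highest and the lowest library of Carm1 both among the Myod1-/- libraries. The log2 fold change of Carm1 was -0.02 (SE 0.09, 95% interval -0.23 to 0.19, adjusted p from limma 0.856).

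The order of the levels in WT cells ran from Smarca4 (30.0 ± 0.394 FPKM, SD, n = 3) through Carm1, Ezh1, Kdm1a and Prmt5 (means 18.6, 17.5, 17.0 and 16.1 FPKM) to Smarcd1, Smarcd3, Ezh2, Suv39h1 and Smarca2 (2.56 ± 0.579 FPKM). Between Carm1 and Prmt5 each neighbour overlapped the next, and all other neighbours were apart. In Myod1-/- cells Smarca4 (19.6 ± 1.56 FPKM) no longer stood apart from Carm1, Smarcd1 (14.7 ± 0.282 FPKM) had moved up from the sixth to the fourth place beside Ezh1, and Smarca2 (0.609 ± 0.0386 FPKM) stayed last. Ezh2 overlapped Smarcd3 there, and Smarcd3 overlapped Suv39h1. Both orders are of gene values, and transcripts did not always keep to these levels. In WT the main transcript of Ezh1 had 26.7, 27.0 and 27.6 FPKM, where the gene had 18.1, 16.9 and 17.6 FPKM. That of Prmt5 had 7.12 FPKM in WT replicate 1, where the gene had 16.0 FPKM.

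The balance within the paralog pairs was compared as a log2 ratio in each library, which does not depend on the scale of a library apart from the added 0.1. Smarca2 took 9.81%, 7.16% and 6.58% of the FPKM of the ATPases in WT and 2.70%, 3.32% and 3.05% in Myod1-/- libraries. The log2 ratio of Smarca2 to Smarca4 was -3.52 ± 0.320 (SD, n = 3) in WT and -4.80 ± 0.146 in Myod1-/- cells, a difference of -1.27 (SE 0.20). That difference moved to -0.54 with a pseudocount of 1 and to -1.94 with gene values taken as sums of transcripts. Smarcd3 took 38.9%, 41.9% and 39.9% of the FPKM of Smarcd3 and Smarcd1 in WT and 17.1%, 17.2% and 24.8% in Myod1-/- libraries. The log2 ratio of Smarcd3 to Smarcd1 was -0.56 ± 0.0914 in WT and -2.02 ± 0.377 in Myod1-/- cells, a difference of -1.45 (SE 0.22). In both pairs the libraries of the genotypes did not overlap, and the exact two-sided permutation test gave p = 0.10 for each (adjusted over 3 ratios 0.15), the smallest value that 3 libraries against 3 allow. The log2 ratio of Ezh1 to Ezh2 was 1.85 ± 0.141 in WT and 1.96 ± 0.0173 in Myod1-/- cells. These overlapped, with a difference of 0.11 (95% interval -0.11 to 0.34, exact permutation p = 0.40, adjusted 0.40), and Ezh1 took 76.9% to 80.2% of the FPKM of both in every library. With sums of transcripts the Ezh1 to Ezh2 difference turned to -0.36 and the genotypes no longer overlapped (exact permutation p = 0.10). All shares above are of gene values, and transcripts gave other levels. In WT replicates 1 and 3 the Smarcd3 transcripts ENSMUST00000030791 (5.65 and 6.18 FPKM) and ENSMUST00000144995 (5.45 and 5.32) exceeded the main Smarcd1 transcript ENSMUST00000023759 (4.11 and 3.39). In WT replicate 2 they did not (3.88 and 5.86 against 9.13 FPKM). Smarca2 transcript ENSMUST00000209085 had 12.8 FPKM in WT replicate 1.

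Smarcd2 completes the BAF60 subunits. Of the summed FPKM of Smarcd1, Smarcd2 and Smarcd3, Smarcd1 took 34.9% to 36.5% in WT and 45.4% to 48.0% in Myod1-/- libraries, Smarcd3 23.2% to 25.2% and 9.76% to 15.0%, and Smarcd2 40.0% to 41.5% and 39.7% to 43.3%. The sum itself was 27.4 to 30.6 FPKM in WT and 30.8 to 32.2 FPKM in Myod1-/- libraries. The BAF60 sums of the genotypes did not overlap, but WT replicate 2 (30.6 FPKM) and Myod1-/- replicate 2 (30.8 FPKM) lay close together. The ATPase sums were lower in all Myod1-/- libraries. Neither sum was tested, and these sums and shares are of gene values.

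**Figure D3:**
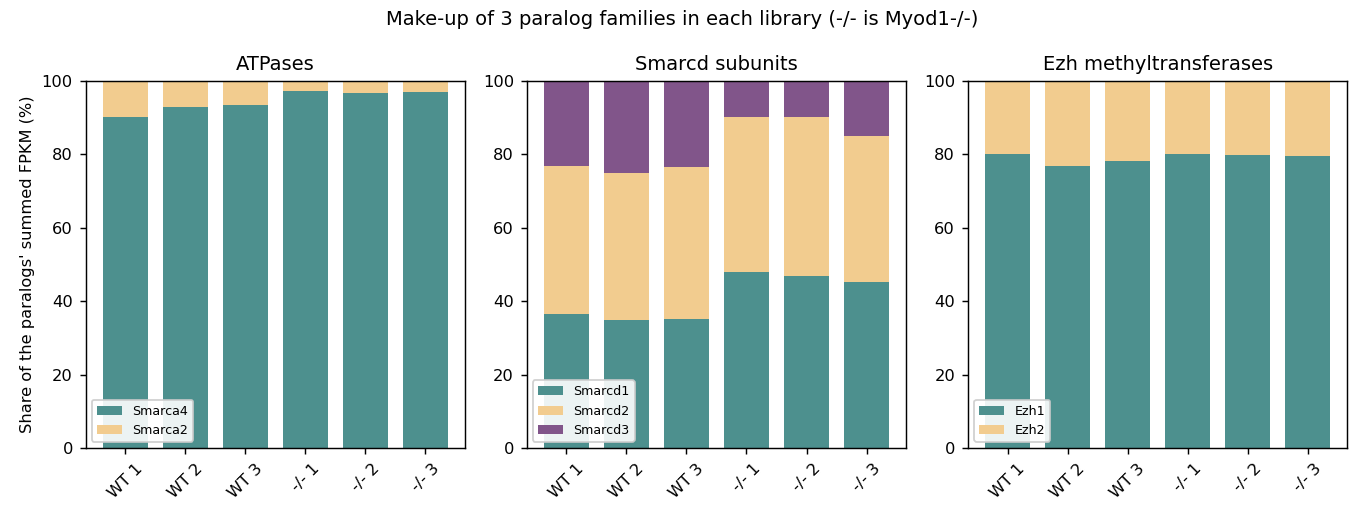
Share (y axis, percent of the summed gene values of the genes shown) of each paralog in each of the 6 libraries, for the ATPases, the Smarcd subunits and the Ezh methyltransferases. Smarca2 takes 6.58% to 9.81% in WT and 2.70% to 3.32% in Myod1-/- libraries, Smarcd3 is smaller and Smarcd1 larger in all 3 Myod1-/- libraries, and Ezh1 takes 76.9% to 80.2% in these gene values, while with sums of transcripts its log2 ratio to Ezh2 was lower in Myod1-/- cells by a difference of -0.36.

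The other genes of these complexes were taken from 8 lists, with 105 genes tested. Of these 37 rose, 23 fell and 45 did not pass, so that 57.1% passed, beside 61.1% of all genes tested, and the median log2 fold change was 0.10. The counts were 25 to 37 that rose and 16 to 26 that fell when 1 library was left out at a time. A log2 fold change of 1 or more in either direction was found for 4 of the 105, and all of these passed. By the study's rule, which asks for that size, 20.3% of all genes tested were called. With gene values taken as sums of transcripts 12 rose and 15 fell, and of the genes named below as changed, Arid2, Bcl7b, Phf10, Eed, Rnf2, Bmi1, Cbx6, Cbx5, Setdb2, Rcor3 and Prmt1 then kept their direction but lost their call (adjusted p from limma 0.0598 to 0.583). Among the 20 other SWI/SNF subunits tested, 8 rose and 4 fell, and with sums of transcripts 0 rose. Rises were found for Bcl7b (6.76 ± 1.43 to 10.6 ± 0.850 FPKM) and for Arid2 (9.10 ± 0.898 to 13.1 ± 0.0751 FPKM), a subunit of the PBAF form, and falls for Brd7 (log2 fold change -0.55, SE 0.05) and Phf10 (20.2 ± 0.607 to 15.2 ± 0.381 FPKM), also of PBAF. Smarcc2, a core scaffold, fell slightly (25.6 ± 0.296 to 23.5 ± 0.685 FPKM, adjusted p from limma 0.0400). This call was lost without WT replicate 2 or 3 or Myod1-/- replicate 1 or 2 (0.0636 to 0.125). Rescaling to the same sum with all genes (0.441) or without mitochondrially encoded genes (0.170) also lost it. So did no filter (0.0561), no intensity trend (0.0853) and the replicate block (0.0963). Pbrm1 did not pass (15.8 ± 1.28 and 14.9 ± 0.281 FPKM).

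Of the 9 other PRC2 genes 4 rose and 2 fell. Eed, a core subunit that binds the H3K27 mark, rose from 6.88 ± 0.0666 to 11.7 ± 0.526 FPKM, and the accessory subunit Mtf2 from 4.99 ± 0.797 to 8.75 ± 1.31 FPKM. The histone chaperone Rbbp4 fell from 36.2 ± 0.913 to 23.8 ± 0.480 FPKM and the accessory subunit Phf19 from 0.924 ± 0.0773 to 0.564 ± 0.115 FPKM. The call of Phf19 was lost without WT replicate 3 or Myod1-/- replicate 1 or 3 (adjusted p from limma 0.0581 to 0.0594). It was also lost under quantile normalization (0.0738) and with the replicate block (0.0566). Of the 17 PRC1 genes, which encode the complex that ubiquitinates H2A, 4 rose and 6 fell. Without Myod1-/- replicate 2 these counts were 2 and 3, without Myod1-/- replicate 3 they were 2 and 5, and with sums of transcripts 1 and 2. Falls were found for the chromobox genes Cbx6 (19.3 ± 5.11 to 8.97 ± 0.826 FPKM) and Cbx2 (7.52 ± 0.295 to 3.73 ± 0.161 FPKM), and rises for Phc2 (17.8 ± 0.113 to 27.9 ± 0.672 FPKM), Rnf2 (20.6 ± 0.836 to 24.1 ± 0.533 FPKM) and Bmi1 (15.4 ± 0.577 to 17.8 ± 0.791 FPKM). That of Bmi1 was lost without Myod1-/- replicate 2 or 3 (adjusted p from limma 0.0569 and 0.0580).

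Among the 9 other H3K9 methyltransferase and HP1 genes 2 rose and 3 fell. Setdb2 rose from 1.83 ± 0.320 to 3.93 ± 0.0593 FPKM. Suv39h2, the paralog of Suv39h1, fell from 0.634 ± 0.0121 to 0.418 ± 0.0136 FPKM, and the HP1 genes Cbx1 and Cbx5 fell from 20.5 ± 0.912 to 12.4 ± 0.520 and from 38.2 ± 2.74 to 30.9 ± 0.917 FPKM. The HP1 gene Cbx3, named beside them after its values were seen, did not pass (16.4 ± 1.33 and 14.7 ± 0.288 FPKM, adjusted p from limma 0.0846). The call of Suv39h2 was lost without WT replicate 3 or any 1 of the Myod1-/- libraries (adjusted p from limma 0.0557 to 0.0694). It was also lost under quantile normalization (0.171), with the replicate block (0.0805) and with no filter (0.0634). Of the 10 CoREST partners of Kdm1a 2 rose and 4 fell, but 2 fell without WT replicate 2 or 3 or Myod1-/- replicate 2, with the replicate block and with sums of transcripts, where 0 rose. Hdac2, a deacetylase of that complex, fell from 21.7 ± 0.669 to 17.0 ± 1.04 FPKM. Hdac1, likewise a deacetylase of it, did not pass (20.2 ± 0.770 and 19.8 ± 0.533 FPKM, adjusted p from limma 0.627). Rcor3 rose from 2.53 ± 0.731 to 4.43 ± 0.580 FPKM. Of 15 other lysine demethylases 6 rose and 2 fell, and the largest change was that of Kdm7a, which rose from 8.35 ± 0.952 to 25.7 ± 0.572 FPKM. Between 5 and 9 of these demethylases rose when 1 library was left out at a time. Only 1 of them fell without Myod1-/- replicate 1 or 2, with the replicate block or with sums of transcripts, and 9 rose and 0 fell on rescaling to the same sum.

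Of the 10 other arginine methyltransferases and Prmt5 partners 1 rose, 2 fell and 7 did not pass. The rise was that of Riok1, a partner of Prmt5 (log2 fold change 0.27, adjusted p from limma 0.0334), whose call was lost without WT replicate 1 or 3 or any 1 of the Myod1-/- libraries (0.0595 to 0.102), with the replicate block (0.0885), with no filter (0.0605) and with sums of transcripts (0.565). Prmt1, the main asymmetric arginine methyltransferase, fell from 33.9 ± 2.36 to 26.5 ± 0.455 FPKM and Prmt7 from 6.95 ± 0.445 to 4.30 ± 0.103 FPKM. Of the 15 acetyltransferase and H3K4 methyltransferase genes 10 rose, none fell and 5 did not pass by limma, and at an unadjusted p under 0.05 the counts were 11 higher and 0 lower. Leaving out 1 library at a time gave 4 to 7 that rose, with 4 without WT replicate 3 or Myod1-/- replicate 2 and 5 without Myod1-/- replicate 1 or 3, the replicate block gave 5 and sums of transcripts gave 3. Paxip1, a subunit of the MLL3/4 complexes, rose from 2.29 ± 0.177 to 6.05 ± 0.342 FPKM, the acetyltransferase Ep300 from 9.96 ± 1.20 to 16.1 ± 0.611 FPKM, and the H3K4 methyltransferase Kmt2d from 11.8 ± 1.07 to 17.8 ± 0.975 FPKM.

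**Figure D4:**
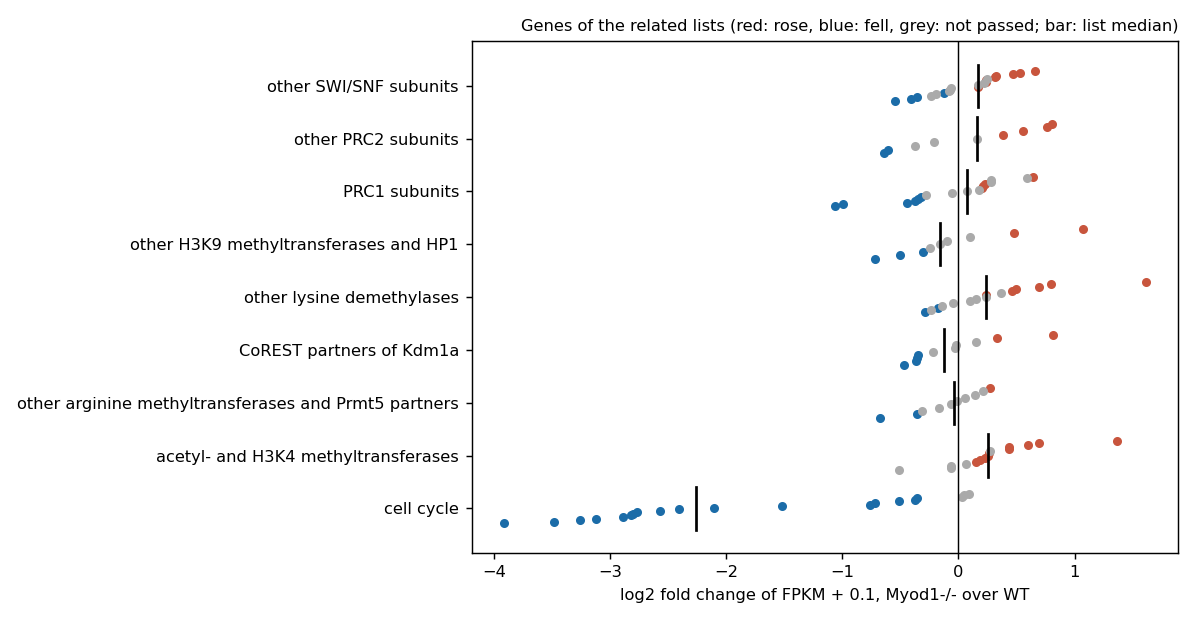
Log2 fold change of FPKM + 0.1 in Myod1-/- over WT cells (x axis) for each tested gene of the 8 related chromatin lists and of the cell cycle list; red rose, blue fell, grey did not pass, and the black bar is the median of the list. The chromatin lists have medians between -0.16 and 0.25 and the cell cycle list one of -2.26.

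For 9 of the 10 genes, all but Suv39h1, the chromatin gene with the most similar profile over the 6 libraries was looked up among 114 others, by Pearson's r of log2(FPKM + 0.1). It is given as a description: all points share the difference between genotypes. Smarcd1 was nearest to Paxip1 (r = 0.997), Ezh1 to Pcgf3 (0.995), Smarca4 to Cbx2 (0.985), Smarca2 to Prmt1 (0.984), Ezh2 to Kdm4b (0.983), Smarcd3 to Smarcc2 (0.977) and Prmt5 to Smarcd3 (0.976). For Kdm1a and Carm1, with no difference between genotypes that passed, the nearest were Hdac1 (0.837) and Dpy30 (0.738).

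The transcript table lists 98 transcripts of the 10 genes, of which 45 reached a mean of 0.5 FPKM. Of these 45, 2 fell and none rose in the fit to all 41216 transcripts tested, where 18.9% passed, and at an unadjusted p under 0.05 limma gave 5 lower and 3 higher. The transcripts that fell were the main transcript of Smarca4 (ENSMUST00000174008, log2 fold change -0.60, adjusted p from limma 0.00894), with 33.4, 31.8 and 34.2 FPKM in WT and 23.1, 19.6 and 22.7 FPKM in Myod1-/- libraries, and that of Suv39h1 (ENSMUST00000115637, log2 fold change -0.64, adjusted p from limma 0.0400). The latter call was kept only without WT replicate 3 when 1 library was left out (0.0816 to 0.103 without any other), and that of Smarca4 was kept each time. No transcript of the 10 genes moved opposite to its gene with an adjusted p under 0.05. The share given to each transcript was not stable between libraries of 1 genotype. The coding transcript ENSMUST00000209085 of Smarca2 was at 12.8 FPKM in WT replicate 1 and at 0 in the other 5 libraries, where Smarca2 as a gene had at most 3.22 FPKM. For Prmt5 the main transcript ENSMUST00000023873 had 7.12, 5.56 and 19.1 FPKM in WT and 14.1, 13.2 and 15.0 FPKM in Myod1-/- libraries. The main transcripts of Smarcd1 (ENSMUST00000023759, 4.11, 9.13 and 3.39 against 12.05, 16.0 and 16.9 FPKM) and Smarcd3 (ENSMUST00000030791, 5.65, 3.88 and 6.18 against 2.90, 2.79 and 3.46 FPKM) lay in the direction of their genes and did not pass (adjusted p from limma 0.0517 and 0.0781), but did without WT replicate 2 (0.00765 and 0.0293). Without WT replicate 3 the main transcript of Prmt5 passed as higher (log2 fold change 1.15, adjusted p from limma 0.0151), against the direction of the gene. The main transcripts of the other genes were ENSMUST00000107285 of Ezh1 (10.6 to 27.6 FPKM over the 6 libraries), ENSMUST00000092648 of Ezh2 (2.02 to 5.85), ENSMUST00000105847 of Kdm1a (19.1 to 22.4) and ENSMUST00000034703 of Carm1 (5.83 to 16.3), and these did not pass.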

How the data were processed

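FPKM were computed by the authors with StringTie after rRNA depletion, NovaSeq sequencing and alignment to GRCm38 with HISAT2 or TopHat, as the methods and labels state, and were used as deposited. FPKM are shares of a library. The files hold no counts and the depth is unknown, though the smallest steps of low values put the libraries within 1.13 times of each other. FPKM summed to 289982 to 315742 per library, with 5.07% to 8.49% from mitochondrially encoded genes, most in WT. Columns were assigned to samples through the study's table of DEGs, whose 3192 genes found here equalled the assigned columns in all 6 libraries (relative tolerance 0.001).

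Genes were fitted by genotype with limma 3.58.1 in R 4.3.3, with eBayes and an intensity trend, on log2(FPKM + 0.1) over genes whose mean reached 0.5 FPKM, adjusted by Benjamini-Hochberg. Transcripts were fitted likewise. The fit was tested on simulated data. Paralog ratios had exact permutation tests. Members and lists were chosen with earlier results of these data known. Names from a list, apart from Cbx3, are taken from its 3 most abundant genes and from the 3 that changed most among those that passed. Alternatives were other pseudocounts, filters and scalings, no trend, a replicate block, sums of transcripts and leaving out each library. Kdm5d, Emcn, Epcam and Krt18 are not analysed here. The gene nearest in profile to Suv39h1 is not reported here.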

Additional observations from a re-analysis of the deposited data

How the results depend on the processing

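Over the 16 alternatives, Smarca2, Smarca4, Smarcd1, Smarcd3 and Ezh1 kept their direction and call wherever they were tested, and 6 or 7 of the 10 genes fell except with a mean of at least 5 FPKM (4, since Smarca2, Ezh2 and Suv39h1 were not tested) and with sums of transcripts (5). The replicate numbers were not taken as pairs, since deviations from the group means of same-numbered libraries correlated at -0.10, -0.14 and -0.03. With the replicate block 6 members fell (the call of Suv39h1 was lost, adjusted p from limma 0.0662), 1 rose, 15 related chromatin genes fell and 1 member transcript fell. Sums of transcripts, which leave out 11524 assembled transcripts with no gene, gave 15 related chromatin genes that fell and 12 that rose, and log2 ratio differences of -1.94 for Smarca2 to Smarca4, -2.00 for Smarcd3 to Smarcd1 and -0.36 for Ezh1 to Ezh2 (exact permutation p = 0.10). They turned the sign for Ezh2 (0.11), Prmt5 (0.58), Carm1 (0.033), Ehmt2 (-0.12), Hdac1 (0.58), Kdm5c (-0.058), Kdm6b (0.16), Pbrm1 (0.013) and Prmt2 (-0.43), none of them called then. A pseudocount of 1 moved the Smarca2 to Smarca4 difference to -0.54. The sign of uncalled genes also turned for Kdm1a under quantile normalization (-0.0013), and for Carm1 (0.056 and 0.014) and Hdac1 (0.047 and 0.0045) on rescaling with and without mitochondrially encoded genes. Leaving out 1 library at a time gave -0.047 to 0.084 for Kdm1a, -0.080 to 0.068 for Carm1, 1 to 3 member transcripts lower and 0 to 1 higher. The cause of these changes was not tested. With 3 libraries per genotype, small differences may have been missed, above all in genes that varied between libraries of 1 genotype.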
